A study of Mus musculus with 24 samples.

Results

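The question here is whether the effect of carbon tetrachloride on serum exosomal miRNAs depended on diet, asked over all 24 samples of the series and all 566 mouse miRNA probes of the panel. Every sample was exosomal RNA from serum of male C57BL/6N mice aged 40 weeks, counted on a NanoString nCounter mouse panel, which reads barcoded probes one by one without amplification. The 4 groups of 6 samples were WD+CCl4 (western diet with carbon tetrachloride), WD+oil (western diet with corn oil), ND+CCl4 (chow with carbon tetrachloride) and ND+oil (chow with corn oil), named HCC, NASH, cirrhosis and normal in the labels. The western diet was high-fat food with sugar water at 23.1 g/L fructose and 18.9 g/L glucose, chow came with tap water, and toxin or oil was given 1 time per week by intraperitoneal injection. The labels do not say whether samples came from separate animals, so each p-value reflects only how far these samples spread.

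Carbon tetrachloride is turned into a reactive radical by cytochrome P450 enzymes of hepatocytes and injures them, and repeated doses scar the liver. A diet rich in fat and sugar loads hepatocytes with lipid. Both kinds of injury are known to put hepatocyte miRNAs, miR-122 above all, into blood. Fewer vesicles of a cell type and less of a miRNA per vesicle cannot be told apart in such samples.

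The interaction was computed per miRNA on log2(deposited value + 1) as the difference WD+CCl4 minus WD+oil, less the difference ND+CCl4 minus ND+oil. A value of 0 means that the folds of diet and toxin multiply. A negative value means that both together gave less than the product of their folds, and a positive value that they gave more. Of the 566 probes, 158 were tested, since their recovered counts exceeded the mean plus 2 SD of 8 negative control probes in at least 6 of 24 samples, and the other 408 were not.

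Mature sequences of miRNAs described further on are shown first, where the table used holds one, from RefSeq (GRCm38.p6), 5′ to 3′, with the seed (bases 2 to 8, which pairs with targets) in capitals. The panel's plain names do not state the arm, so where the name has none the arm usually meant by it is printed, and both arms for miR-192. Of the 27 miRNAs named by rule, 5 matched a RefSeq arm by name, 13 a hairpin, and 9, miR-122 among them, had no match. Entries of 1 chromosome had been left out of the table used, so a missing match or sequence does not mean that RefSeq lacks one. miR-192 lies at chr19:6264857-6264877 for its 5p arm, on the plus strand. The 3 printed members of the miR-30 family share 1 seed, and the seeds of the heart miRNAs miR-208a and miR-499 differ in their last base.
miR-192-5p: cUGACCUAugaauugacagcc
miR-192-3p: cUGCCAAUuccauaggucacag
miR-148a-3p: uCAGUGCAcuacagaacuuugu
miR-802-5p: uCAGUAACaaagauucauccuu
miR-30a-5p: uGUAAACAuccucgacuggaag
miR-30c-5p: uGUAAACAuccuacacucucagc
miR-30e-5p: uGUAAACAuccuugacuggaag
miR-22-3p: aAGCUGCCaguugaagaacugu
miR-540-3p: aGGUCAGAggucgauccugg
miR-342-3p: uCUCACACagaaaucgcacccgu
miR-208a-3p: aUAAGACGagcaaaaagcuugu
miR-499-5p: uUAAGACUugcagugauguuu

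Recovered total counts ranged from 42478 to 1496798 per library, and 69 to 213 mouse probes lay above the negative control limit. Replicate 1 of WD+CCl4 and replicate 1 of ND+CCl4 had the highest totals, 1328891 and 1496798, and were known from earlier results of these data to stand apart. The interactions of the main miRNAs are therefore also given over the 22 libraries without them. In the oil groups replicates 1 to 3 had lower totals than replicates 4 to 6 (42478 to 75896 against 178252 to 265260), and the interaction is given within each set, although the labels name no batch. The haemolysis index subtracts log2 miR-23a, which is stable in plasma, from log2 miR-451, which red cells carry. Its interaction was -0.23 (SE 0.81), that of the log2 total count -0.45 (SE 1.10), and that of the number of detected miRNAs 20.7 (SE 30.0). Each was smaller than its error.

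In the main limma fit over all 24 libraries, which ignored replicate numbers, no miRNA showed an interaction that passed. With the replicate number as a block 1 (miR-122) passed, as it did in some other settings given further on. Over 22 libraries miR-122 and miR-192, both abundant in liver, passed in the main fit with negative values. By limma 0 of 158 miRNAs had an adjusted p under 0.05 (0% called), 6 had an unadjusted p under 0.05 (3.8%), 4 of them negative (2.53%) and 2 positive (1.27%), and the smallest adjusted p was 0.112, for miR-122. edgeR on recovered counts also called 0, with 10 at an unadjusted p under 0.05, and DESeq2 called 2, miR-122 and miR-540-3p. Without replicate 1 of both CCl4 groups limma called 2 (1.27%) and 20 had an unadjusted p under 0.05 (12.7%), 12 of them negative (7.59%) and 8 positive (5.06%). Over 22 libraries 66 of 158 estimates were negative (41.8%). The 2 libraries were left out because they stood apart, so that count is not independent of their values.

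The estimates were small for most miRNAs and imprecise for nearly all. They ranged from -4.67 to 1.93 with a median of 0.18, and 61 of 158 were negative (38.6%). Of the 158, 134 lay within 1 log2 unit of 0, 13 below -1 and 11 above 1. The median standard error was 0.64 and the median half-width of the 95% interval 1.32, so that the whole interval lay within 1 log2 unit of 0 for 7 miRNAs and within 2 units for 99. Over 22 libraries the median standard error was 0.50 and these counts were 15 and 115. A missing call therefore does not show that the folds multiplied.

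miR-122, by far the commonest miRNA in hepatocytes, had the largest negative estimate. Its log2 values (lowest, median, highest) were 10.51, 12.59 and 15.43 in WD+CCl4, 11.53, 12.54 and 13.32 in WD+oil, 9.66, 11.56 and 15.89 in ND+CCl4, and 6.30, 7.23 and 8.29 in ND+oil. The ND+oil libraries lay below every library of the other 3 groups, which overlapped one another. Carbon tetrachloride moved miR-122 by 0.07 (95% interval -1.69 to 1.83, adjusted p = 0.991) on the western diet and by 4.74 (2.98 to 6.50, adjusted p = 0.0015) on chow, where it rose 26.7-fold. The interaction was -4.67 (SE 1.21, interval -7.16 to -2.18, adjusted p = 0.112). Residuals of same-numbered libraries were positively correlated between the 2 CCl4 groups and between the 2 oil groups. Between the other pairs of groups the correlations were mixed, down to -0.17, so the numbers do not pair all groups. With the replicate number as a block the estimate was the same and passed (adjusted p = 0.00179), as it did with a term for the sets of replicates (adjusted p = 0.00766). Over 22 libraries it was -4.47 (SE 0.89, interval -6.31 to -2.63, adjusted p = 0.00577).

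Seen from the side of the diet, miR-122 rose 37.4-fold with western diet under oil (log2 5.23, SE 0.85, adjusted p = 0.00036). Under carbon tetrachloride the same diet contrast was 0.55 (interval -1.21 to 2.31, adjusted p = 0.897). In deposited units WD+CCl4 had a geometric mean of 6028, WD+oil one of 5751, ND+CCl4 one of 4109 and ND+oil one of 153. The product of the folds would put WD+CCl4 at 153711, and adding the 2 increments to ND+oil would put it at 9707. The observed level was 0.0392 of that product and 0.621 of that sum (0.0451 and 0.506 over 22 libraries). It thus fell short of both, and by far more against the product. The sum was built from group geometric means, so it is not the interaction on untransformed values. On the untransformed values the interaction did not pass (adjusted p = 0.944 over 24 libraries, 0.693 over 22), nor on their square roots (0.889 and 0.306). The estimate on untransformed values was still negative, -6353 over 24 libraries and -3034 over 22. miR-122 was thus called only where folds were compared, and a missing call on the other scales does not show that the increments added up.

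Within replicates 1 to 3 the miR-122 interaction was -5.59, and within replicates 4 to 6 it was -3.76. Both sets gave a negative value of several log2 units, though neither is independent of the estimate over all libraries. In 5 of the 6 ND+oil libraries miR-122 was above the negative control limit, but not far from it. In deposited units it was 313 against a limit of 174 in replicate 1, and 78 against 72 in replicate 6. Folds against ND+oil, and the product built from them, are therefore ratios to a level near background. With background subtracted the estimate was -5.11 and passed (adjusted p = 0.0368).

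miR-192, abundant in liver, gut and kidney, also had ND+oil as its lowest group. Its log2 values were 9.21, 9.91 and 14.60 in WD+CCl4, 9.69, 10.25 and 12.07 in WD+oil, 8.62, 10.27 and 14.23 in ND+CCl4, and 6.78, 7.37 and 7.85 in ND+oil. Again every ND+oil library lay below all others, and the other 3 groups overlapped. Carbon tetrachloride moved it by 0.20 (interval -1.46 to 1.86, adjusted p = 0.984) on the western diet, and on chow it rose 9.46-fold (log2 3.24, SE 0.80, adjusted p = 0.0368). miR-122 and miR-192 were the only 2 of 158 miRNAs that passed for carbon tetrachloride on chow (1.27%), against 0 of 158 on the western diet (0%), where 8 miRNAs had an unadjusted p under 0.05.

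The miR-192 interaction was -3.04 (SE 1.14, interval -5.38 to -0.70, adjusted p = 0.459). Over 22 libraries it was -3.09 (SE 0.64, interval -4.42 to -1.76, adjusted p = 0.00577), nearly the same estimate with a smaller error. The estimate was -3.79 from replicates 1 to 3 alone and -2.30 from replicates 4 to 6 alone. The observed WD+CCl4 level was 0.122 of the product and 0.591 of the sum. Only 3 of 6 ND+oil libraries lay above the negative control limit for miR-192, so folds against ND+oil are in part ratios to background.

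**Figure D1:**
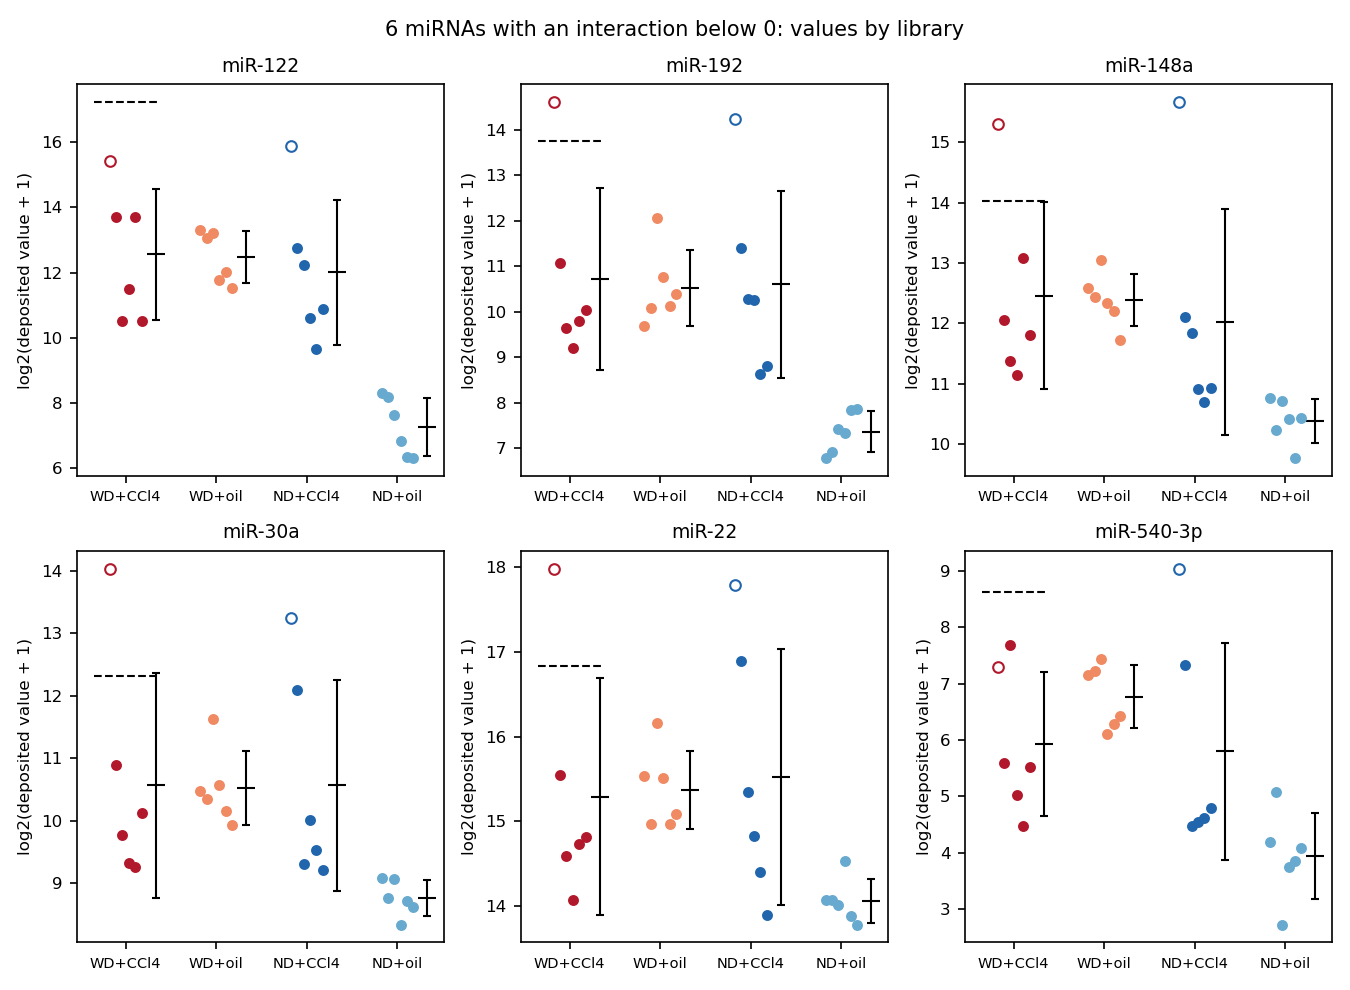
The vertical axes give log2(deposited value + 1) of miR-122, miR-192, miR-148a, miR-30a, miR-22 and miR-540-3p, with 1 point per library, open symbols for replicate 1 of the CCl4 groups, a black bar for the group mean ± SD (n = 6) and a dashed line for the WD+CCl4 level at which the folds would multiply. For miR-122 the dashed line stands at 17.23, above all 6 WD+CCl4 libraries, whose highest is 15.43.

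Other miRNAs rich in hepatocytes also had negative estimates, which did not pass. All 6 tested members of the 8-member hepatocyte list had negative estimates, with a median of -1.42 beside 0.18 over all 158 miRNAs, and 0 passed. Over 22 libraries the median was -1.39, and the 2 that passed were miR-122 and miR-192. miR-148a, an abundant hepatocyte miRNA, had log2 values of 11.15, 11.93 and 15.30 in WD+CCl4, 11.72, 12.39 and 13.04 in WD+oil, 10.71, 11.38 and 15.66 in ND+CCl4, and 9.77, 10.43 and 10.76 in ND+oil. The ND+oil libraries lay below both western diet groups and overlapped only the lower end of ND+CCl4. Its interaction was -1.57 (SE 0.95, adjusted p = 0.926), and -1.41 over 22 libraries (SE 0.46, adjusted p = 0.149). It was -0.84 without ND+CCl4 replicate 1 and -2.13 without WD+CCl4 replicate 1.

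miR-802, which is raised in livers of obese mice, had an interaction of -1.27 (SE 0.82, adjusted p = 0.926) and was above the limit in 9 of 24 libraries. By group it exceeded the limit in 4 of 6 WD+CCl4, 3 of 6 WD+oil, 2 of 6 ND+CCl4 and 0 of 6 ND+oil libraries. Its chow baseline is therefore not a measured level. Its WD+oil libraries, 6.31 to 6.99, were tightly grouped, while WD+CCl4 spanned 4.62 to 8.80, ND+CCl4 4.48 to 8.15 and ND+oil 4.31 to 6.59. miR-365 stood at -1.16 and miR-101b at -0.52. The summed level of the 6 hepatocyte miRNAs (log2, median with range) reached 13.45 (12.30 to 16.77) in WD+CCl4 against 13.66 (12.95 to 14.47) in WD+oil. With chow it was 12.77 (11.59 to 17.03) in ND+CCl4 against 10.86 (10.35 to 11.22) in ND+oil. ND+oil alone did not overlap the rest.

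The miR-30 family, whose members share the seed GUAAACA, had 4 of 5 members negative and 0 passing, with a median of -0.89 (-0.996 over 22 libraries). miR-30a, which represses profibrotic and autophagy genes, had log2 values of 9.27, 9.95 and 14.03 in WD+CCl4, 9.94, 10.41 and 11.63 in WD+oil, 9.21, 9.77 and 13.24 in ND+CCl4, and 8.34, 8.74 and 9.09 in ND+oil. No ND+oil library reached any library of the other groups. Its interaction was -1.75 (SE 0.97, interval -3.75 to 0.24, adjusted p = 0.926), -1.91 over 22 libraries (SE 0.59, adjusted p = 0.149), -1.83 in replicates 1 to 3 and -1.68 in replicates 4 to 6. miR-30c stood at -0.95, miR-30d at -0.89 and miR-30e at -0.77, whereas miR-30b stood at 0.48. Over all 158 tested miRNAs 61 were negative, with a median of 0.18.

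miR-22, a broadly expressed and abundant miRNA, had log2 values of 14.08, 14.78 and 17.98 in WD+CCl4, 14.97, 15.30 and 16.16 in WD+oil, 13.89, 15.09 and 17.79 in ND+CCl4, and 13.78, 14.04 and 14.53 in ND+oil. All WD+oil libraries lay above all ND+oil libraries, and both CCl4 groups reached into the ND+oil range. The interaction was -1.55 (SE 0.81, adjusted p = 0.926), and -1.63 over 22 libraries (SE 0.53, adjusted p = 0.149). edgeR and DESeq2 on recovered counts both called miR-22 and miR-30a over 22 libraries, with adjusted p of 0.0282 each by edgeR and of 0.00684 and 0.00534 by DESeq2. miR-378, encoded in an intron of the mitochondrial regulator Ppargc1b, stood at -1.35 (SE 0.82, adjusted p = 0.926) and was called over 22 libraries by DESeq2 alone (adjusted p = 0.0482).

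miR-540-3p, from the imprinted Dlk1-Dio3 locus, had the second smallest p among negative values. Its log2 values were 4.47, 5.55 and 7.68 in WD+CCl4, 6.10, 6.78 and 7.44 in WD+oil, 4.48, 4.71 and 9.03 in ND+CCl4, and 2.73, 3.97 and 5.07 in ND+oil. All WD+oil libraries exceeded all ND+oil libraries, and the CCl4 groups ran across both. The interaction was -2.69 (SE 0.96, adjusted p = 0.459), and -2.32 over 22 libraries (SE 0.78, adjusted p = 0.149). It was above the negative control limit in 9 of 24 libraries and in 0 of 6 ND+oil libraries, so its chow baseline is not a measured level. Of 9 tested miRNAs of that locus 6 were negative, beside 61 of all 158, and 0 passed. The median of the locus was -0.56 (-0.39 over 22 libraries). That median was -1.02 in replicates 1 to 3 but 0.18 in replicates 4 to 6.

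miR-342-3p, a miRNA of lymphocytes, is encoded in the Evl gene. Its log2 values were 8.08, 10.04 and 10.73 in WD+CCl4, 10.75, 10.94 and 12.39 in WD+oil, 7.40, 9.52 and 10.46 in ND+CCl4, and 8.71, 9.57 and 10.15 in ND+oil. All 6 WD+oil libraries lay above every other library. Carbon tetrachloride moved it by -1.32 (SE 0.47, adjusted p = 0.887) on the western diet and by -0.22 on chow, and the interaction was -1.10 (SE 0.66, adjusted p = 0.926). The diet contrast under oil passed (log2 1.68, SE 0.47, adjusted p = 0.0241), as it did for 17 of 158 miRNAs (10.8%, against 52 or 32.9% over 22 libraries). miR-2135 (-1.30, above the limit in 14 libraries) and miR-2132 (-1.17, in 9) complete the 12 smallest p among negative values, and neither passed.

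**Figure D2:**
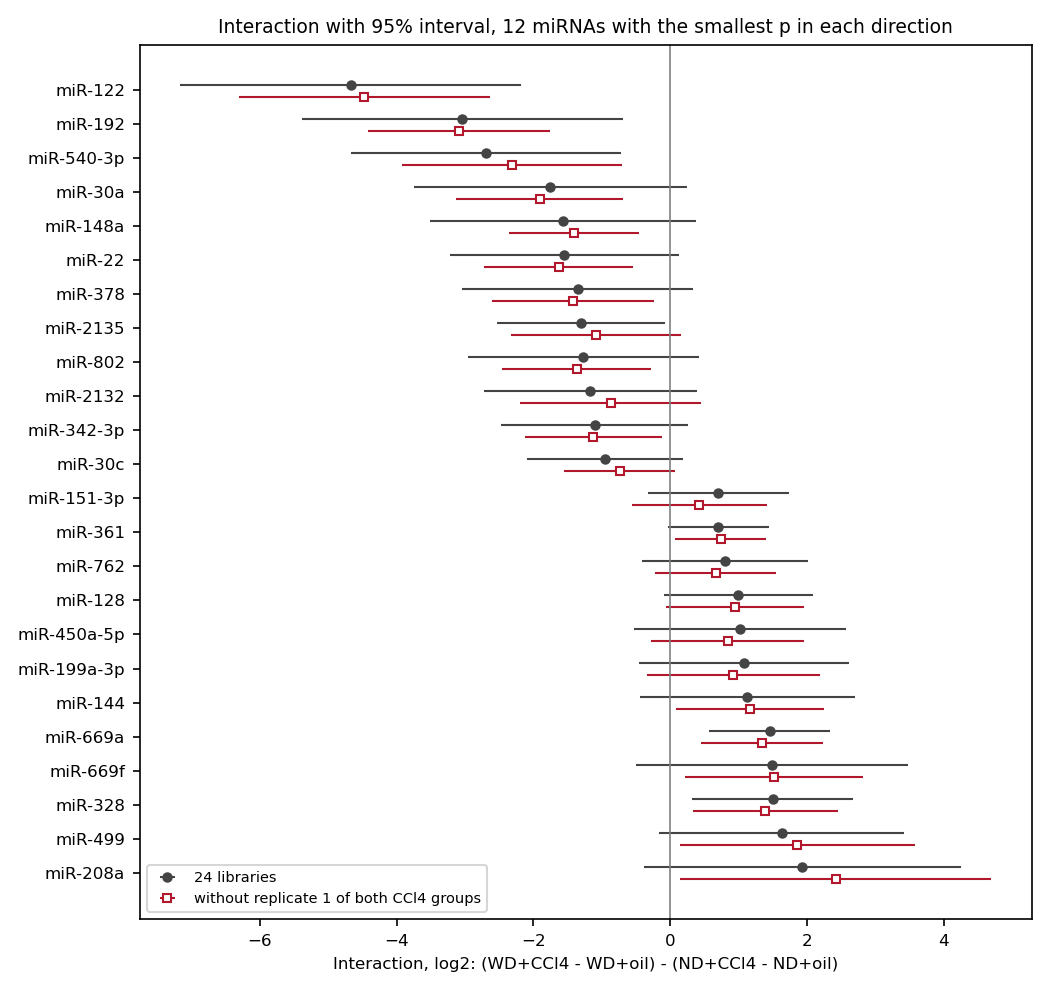
The horizontal axis gives the interaction in log2 units with its 95% limma interval for the 12 miRNAs of smallest p in each direction, filled circles over 24 libraries and open squares over 22. The 22-library intervals of miR-122 (-6.31 to -2.63) and miR-192 (-4.42 to -1.76) lie farthest below 0, and every miRNA shown keeps its sign between both fits.

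Positive estimates, where both exposures together gave more than the product of their folds, were smaller, and none passed over 24 or 22 libraries in the fit without a replicate block. miR-669a, of the miRNA cluster in an intron of Sfmbt2, had the smallest p among them. Its log2 values were 6.08, 6.64 and 7.001 in WD+CCl4, 5.50, 6.09 and 6.37 in WD+oil, 5.74, 6.66 and 7.49 in ND+CCl4, and 6.63, 7.60 and 8.05 in ND+oil. All ND+oil libraries lay above all WD+oil libraries, and each CCl4 group overlapped both. Carbon tetrachloride moved it by 0.59 (SE 0.30, adjusted p = 0.887) on the western diet and by -0.86 (SE 0.30, adjusted p = 0.151) on chow.

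The miR-669a interaction was 1.45 (SE 0.43, interval 0.57 to 2.34, adjusted p = 0.193), 1.35 over 22 libraries (SE 0.43, adjusted p = 0.149), 2.14 in replicates 1 to 3 and 0.77 in replicates 4 to 6. With western diet under oil miR-669a fell by 1.46 on the log2 scale (SE 0.30, adjusted p = 0.0033), and under carbon tetrachloride the diet contrast was -0.01 (interval -0.64 to 0.62). It was above the limit in 18 of 24 libraries, but in only 3 of 6 WD+oil libraries, its lowest group by median. Its fall with western diet under oil is therefore in part a fall to background. miR-669f of the same cluster stood at 1.48 (SE 0.96, adjusted p = 0.926) and, over 22 libraries, at 1.52 (SE 0.63, adjusted p = 0.313). It passed over 22 libraries with the replicate number as a block (adjusted p = 0.0323). With background subtracted as well, both miR-669f (1.92, adjusted p = 0.0105) and miR-669a (3.29, adjusted p = 0.0244) passed there, a setting added after seeing the data. The miR-669f estimate over 24 libraries was 0.91 without ND+CCl4 replicate 1 and 2.09 without WD+CCl4 replicate 1. Of the 5 tested members of the cluster 4 were positive, with a median of 0.41. Over all 158 tested miRNAs 97 were positive, with a median of 0.18.

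miR-328 was above the limit in all 24 libraries. Its log2 values were 8.02, 8.93 and 9.36 in WD+CCl4, 7.72, 8.46 and 9.17 in WD+oil, 7.07, 8.69 and 9.52 in ND+CCl4, and 8.87, 9.41 and 10.27 in ND+oil. ND+oil was the highest group by its median and overlapped each of the others. The interaction was 1.501 (SE 0.57, interval 0.32 to 2.68, adjusted p = 0.459), and 1.39 over 22 libraries (SE 0.51, adjusted p = 0.243), with 1.79 and 1.21 in the sets of replicates 1 to 3 and 4 to 6.

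The heart and skeletal muscle list had 4 of 5 tested members positive and 0 passing, with a median of 0.78 (1.02 over 22 libraries). Over all tested miRNAs 97 of 158 were positive, with a median of 0.18. miR-208a and miR-499 are encoded in introns of the myosin genes Myh6 and Myh7b. miR-208a had log2 values of 7.26, 7.99 and 9.51 in WD+CCl4, 6.08, 7.73 and 8.47 in WD+oil, 2.81, 7.36 and 9.76 in ND+CCl4, and 7.53, 8.33 and 10.61 in ND+oil. All 4 groups overlapped, and 1 ND+CCl4 library was far below the rest. Its interaction was 1.93 (SE 1.13, interval -0.39 to 4.25, adjusted p = 0.926), and 2.42 over 22 libraries (SE 1.10, adjusted p = 0.316). It was 1.04 without ND+CCl4 replicate 5, the low library, and 2.43 without ND+CCl4 replicate 1.

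miR-499 had log2 values of 6.77, 7.66 and 8.42 in WD+CCl4, 5.05, 6.49 and 7.26 in WD+oil, 4.80, 6.92 and 9.03 in ND+CCl4, and 6.28, 7.28 and 9.41 in ND+oil. WD+oil was the lowest group by its median, and all groups overlapped. miR-499 was above the negative control limit in 17 of 24 libraries but in only 2 of 6 WD+oil libraries. The interaction was 1.63 (SE 0.87, adjusted p = 0.926), and 1.86 over 22 libraries (SE 0.83, adjusted p = 0.316). Within that list miR-1 stood at 0.78, miR-133a at 0.70 and miR-206 at -0.41.

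Of the blood cell lists, the platelet list had 6 of 6 tested members positive, with a median of 0.58 (0.55 over 22 libraries). They ran from miR-126-3p at 0.37 to miR-199a-3p at 1.08 (SE 0.74, adjusted p = 0.926), with miR-223, made by myeloid cells and carried by platelets, at 0.77. The red cell list had 5 of 6 members negative, with a median of -0.19. miR-144 and miR-451 are processed from 1 transcript in red cell precursors, and their estimates were 1.13 (SE 0.76) and -0.27 (SE 0.68). The myeloid list had 2 of 5 members negative (median 0.19), and the lymphoid list 2 of 4 (median 0.02, and -0.22 over 22 libraries). No member of these lists passed, and 97 of all 158 tested miRNAs were positive (median 0.18). Among the 12 smallest p of positive values outside the lists described were miR-361 (0.71), the neuronal miR-128 (0.997), miR-450a-5p (1.02), miR-762 (0.80) and miR-151-3p (0.71), each with an adjusted p of 0.926. Of these, miR-450a-5p and miR-151-3p were each above the negative control limit in only 9 of 24 libraries.

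The remaining lists also held no called member over 24 libraries. The let-7 family had 7 of 9 members positive (median 0.38), and the miR-17-92 family 6 of 8 (median 0.17). Over all tested miRNAs 97 of 158 were positive (median 0.18), and the counts given here are to be read beside that share. The lipid and glucose list had 0 of 5 positive (median -0.65) and the antifibrotic list 3 of 8 (median -0.85). The list of miRNAs reported higher in liver fibrosis had 4 of 7 positive (median 0.07, and -0.11 over 22 libraries), and the miR-23, miR-24 and miR-27 clusters 1 of 5 (median -0.27). The endothelial list had 3 of 3 positive (median 0.37) and the neuronal list 2 of 4 (median -0.09). The miR-29 family had 2 of 3 positive (median 0.27), the miR-15 and miR-16 family 2 of 3 (median 0.32), the miR-99 and miR-125 family 2 of 3 (median 0.03) and the miR-130 and miR-301 family 3 of 4 (median 0.34). The lists share members, with miR-122 in the hepatocyte, lipid and antifibrotic lists. The let-7 median changed sign between the sets, 0.71 for replicates 1 to 3 against -0.13 for replicates 4 to 6, and so did the medians of the red cell list (0.26 against -0.45), the miR-17-92 family (0.49 against -0.08), the miR-99 and miR-125 family (0.42 against -0.10), the lymphoid list (0.30 against -0.49) and the myeloid list (-0.13 against 0.21). The hepatocyte median was negative in both sets, -2.16 and -1.01, and the muscle median positive in both, 0.54 and 1.13. Both sets are parts of the 24 libraries that gave the list medians, so their signs are not independent of those medians.

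**Figure D3:**
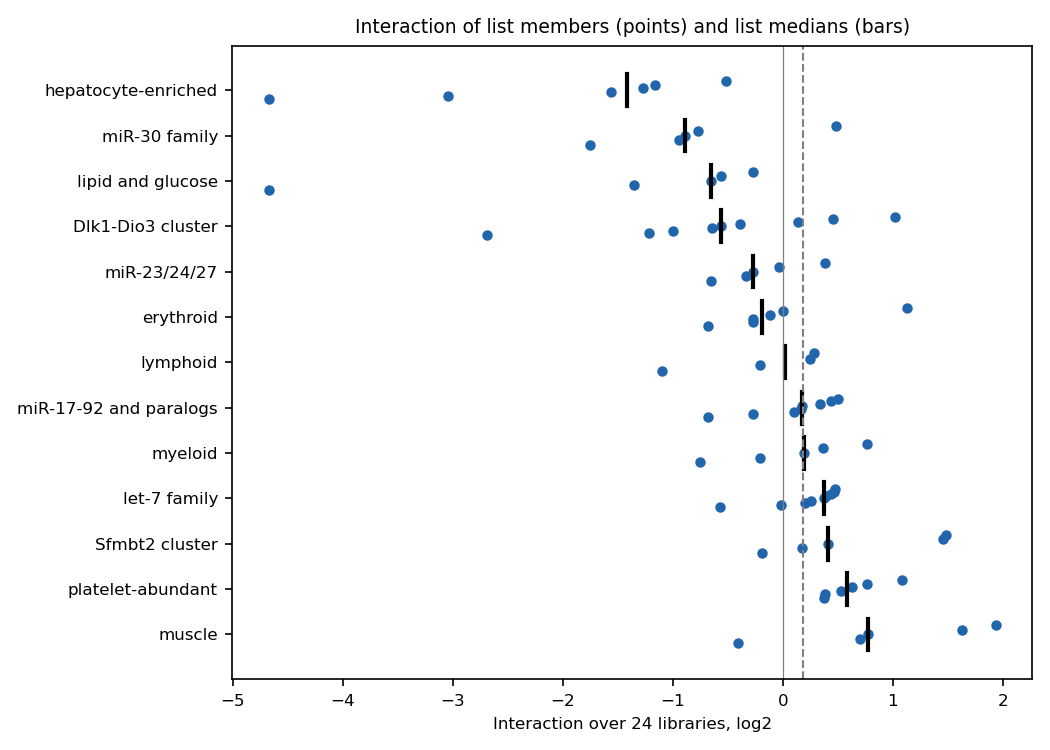
The horizontal axis gives the interaction in log2 units of each tested member of 13 miRNA lists, with the list median marked and a dashed line at the median of all 158 miRNAs (0.18). The 6 hepatocyte members all lie below 0, from -4.67 to -0.52, and the 6 platelet members all above it, from 0.37 to 1.08.

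A last pattern was a diet difference with an interaction near 0. miR-1224, which is spliced out of a short intron rather than cut by Drosha, had log2 values of 10.71, 11.16 and 12.22 in WD+CCl4, 10.21, 11.14 and 11.26 in WD+oil, 8.18, 9.26 and 10.67 in ND+CCl4, and 8.25, 9.07 and 9.68 in ND+oil. Both western diet groups exceeded ND+oil without overlap. It rose 3.97-fold with western diet under carbon tetrachloride (log2 1.99, SE 0.38, adjusted p = 0.00394), as the 1 call among 158 over 24 libraries (0.633%, against 8 or 5.06% over 22), and 3.87-fold under oil (log2 1.95, SE 0.38, adjusted p = 0.00251). The interaction was 0.04 (SE 0.54, interval -1.08 to 1.16), which leaves room for about 1 log2 unit either way.

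The 2 sets of replicates disagreed for miR-1224, at -1.59 in replicates 1 to 3 and 1.67 in replicates 4 to 6, so the pooled value near 0 is a mean of opposite values. Averaged over both treatments, 32 of 158 miRNAs passed for diet (20.3%, against 52 or 32.9% over 22 libraries), and averaged over both diets 0 passed for carbon tetrachloride by limma (0%), with 34 at an unadjusted p under 0.05.

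**Figure D4:**
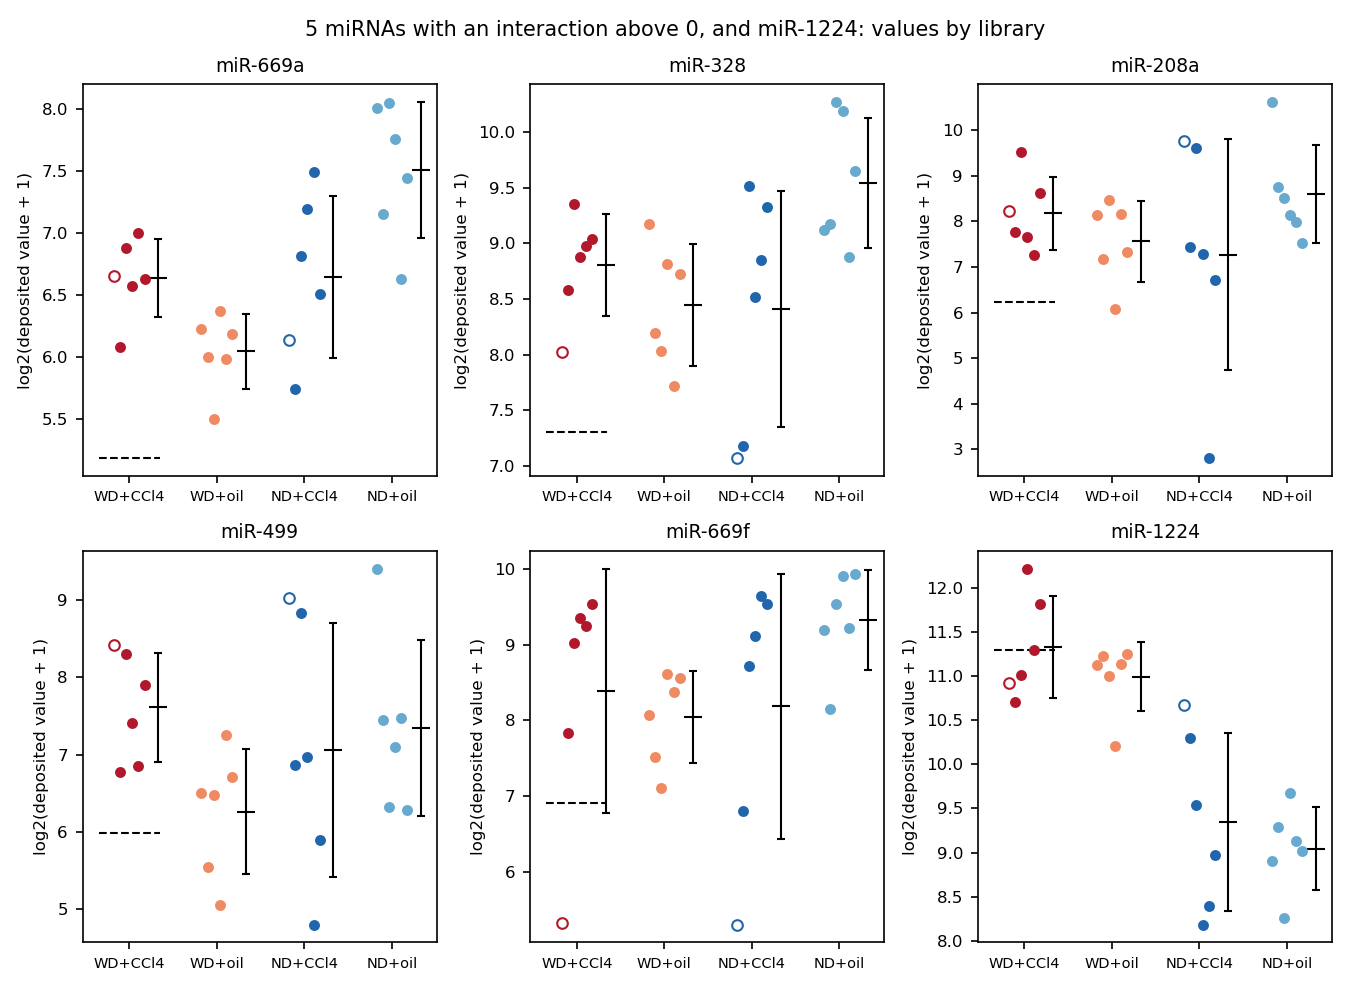
The vertical axes give log2(deposited value + 1) of miR-669a, miR-328, miR-208a, miR-499, miR-669f and miR-1224, with 1 point per library, open symbols for replicate 1 of the CCl4 groups, a black bar for the group mean ± SD (n = 6) and a dashed line for the WD+CCl4 level at which the folds would multiply. The line lies below all 6 WD+CCl4 libraries for miR-669a (5.18, lowest library 6.08) and within their range for miR-1224 (11.30).

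The calls of miR-122 and miR-192 changed with the libraries used and with the processing. Over the same 24 libraries miR-122 also passed with a haemolysis term (adjusted p = 0.00246), and both passed with array weights (adjusted p = 0.00545 and 0.00807). miR-122 did not pass when scaled by spike-in probes (limma adjusted p = 0.466), with a term for the log2 total count (limma adjusted p = 0.153) or by edgeR (adjusted p = 0.0521). miR-192 passed in none of these. Of 23 alternatives to the 24-library fit 14 gave 0 calls, as did 22 of 24 fits that left out 1 library. Leaving out WD+CCl4 replicate 1 alone gave both calls (adjusted p = 0.016 and 0.0306), and leaving out ND+CCl4 replicate 5, the library with the highest haemolysis index (6.36), gave that of miR-122 (adjusted p = 0.038). Over the 22 libraries both calls held in each of the 22 fits that left out 1 further library (miR-122 from -4.90 to -4.08, miR-192 from -3.40 to -2.71, highest adjusted p = 0.0179). Scaling by spike-in probes over the 22 libraries kept the miR-122 call (adjusted p = 0.00807) and ended that of miR-192, at an estimate of -3.03 (adjusted p = 0.632). Over 24 libraries the miR-122 estimate ran from -5.25 to -3.90 and that of miR-192 from -3.82 to -2.31 when 1 library was left out.

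**Figure D5:**
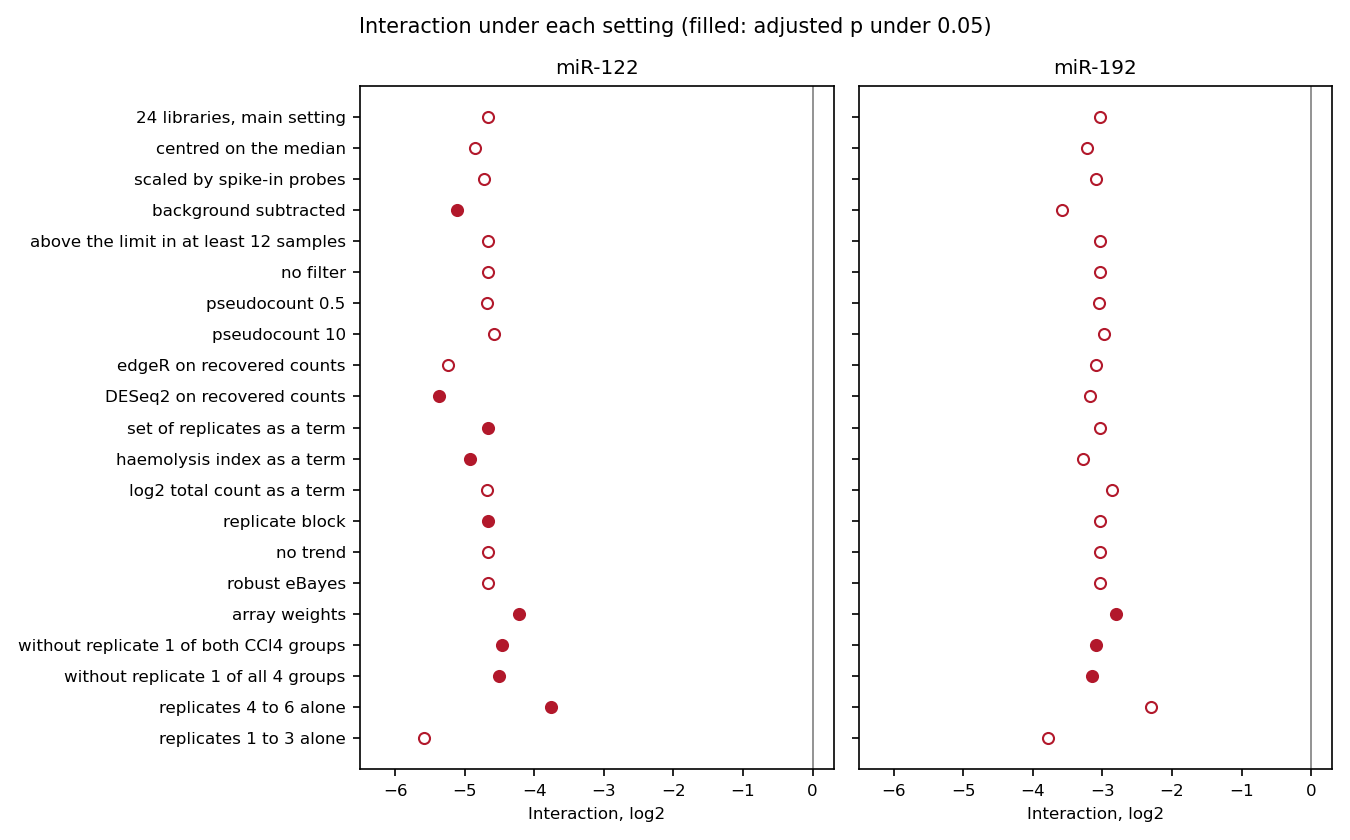
The horizontal axis gives the interaction of miR-122 and miR-192 in log2 units under the alternatives to the 24-library fit, filled where the adjusted p was under 0.05. Square roots, untransformed values and fits that left out 1 library are not shown. All estimates shown are negative. Those of miR-122 run from -5.59 (replicates 1 to 3 alone) to -3.76 (replicates 4 to 6 alone).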

How the data were processed

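Per the labels, RNA was extracted from serum exosomes with a miRNeasy micro kit and counted on the nCounter mouse v1 panel of NanoString. The deposited values are scaled digital counts, used here as signal. From the values, the authors multiplied each sample's counts by 1 factor (0.397 to 5.72) and listed values under 1 as 1. Divided by it, all 14571 of the 14571 values above 1 came out whole (100%, within 0.05 counts), and there were 117 values listed as 1 in 9 libraries. The sources used here do not give the exosome isolation, scaling software, cartridges or animals per sample.

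The test was limma (3.58.1, R 4.3.3), fitted on log2(value + 1) by lmFit and trended eBayes, 4 group means, two-sided, with Benjamini-Hochberg adjustment over the 158 tested miRNAs (4 on probes shared by several miRNAs) and a threshold of 0.05. The median total was 207120 counts per library, and each group had 6 samples. For recovered counts edgeR 4.0.16 and DESeq2 1.42.0, and other scalings, filters, pseudocounts, covariates and left-out libraries served as alternatives. Count recovery and the interaction fit were tested on simulated data. The named miRNAs are the 12 of smallest p in each direction over 24 libraries, those called over 22, and miR-122, miR-192, miR-148a, miR-1224, miR-451 and miR-23a. List members beyond these are the examples of smallest p, except miR-1, miR-133a, miR-206, miR-30b, miR-30d, miR-30e, miR-365, miR-101b, miR-126-3p and miR-223, given to account for a list. Members and lists were chosen with earlier results of these data known.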

Additional observations from a re-analysis of the deposited data

Results flagged for a closer look

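Of 120 groups of 6 values checked for a library far from the others, 16 held one (chance gives about 1 in 20), and 10 of these were replicate 1 of a CCl4 group. In WD+CCl4 replicate 1 the log2 values were 14.60 for miR-192 (others 9.21 to 11.06), 14.03 for miR-30a, 13.13 for miR-378 and 8.805 for miR-802, all above the other 5 libraries. In the same library miR-342-3p at 8.082, miR-144 at 5.826 and miR-451 at 14.21 lay below them. In ND+CCl4 replicate 1 miR-148a at 15.66 and miR-30c at 12.49 lay above the other 5, and miR-199a-3p at 6.056 below. Elsewhere WD+oil replicate 3 was apart at 12.39 for miR-342-3p, 12.14 for miR-378 and 14.73 for miR-451, WD+oil replicate 4 at 10.21 for miR-1224, WD+CCl4 replicate 3 at 7.955 for miR-2135, and ND+oil replicate 4 at 6.535 for miR-2135.

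Over 22 libraries the difference in the effect of carbon tetrachloride between the diets passed for miR-122 (interaction -4.469) and miR-192 (-3.092). Each had a limma adjusted p of 0.00577. Neither passed in the main fit over all 24 libraries (limma adjusted p = 0.112 and 0.459). Scaled by spike-in probes, miR-192 did not pass over 22 libraries either (limma adjusted p = 0.632). For miR-669a the effect of carbon tetrachloride had opposite signs on the 2 diets, and the test of that difference did not pass (interaction 1.453, limma adjusted p = 0.193).

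Of 33 viral miRNA probes, 0 had all libraries of another group above both the negative control limit and every ND+oil library. Smaller differences were not examined.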

How the results depend on the processing

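Over 24 libraries, where 0 miRNAs passed, background subtraction, a term for the sets of replicates, a haemolysis term and a replicate block each gave 1 call (miR-122). Array weights, and leaving out replicate 1 of both CCl4 groups or of all 4 groups, each gave 2 (miR-122 and miR-192). DESeq2 and replicates 4 to 6 alone each gave 2 (miR-122 and miR-540-3p), and DESeq2 gave miR-192 no adjusted p. Leaving out 1 library gave 0 to 2. Over 22 libraries, where 2 passed, scaling by spike-in probes gave 1 (miR-122), edgeR 4 and DESeq2 5, and leaving out 1 library 2 to 3. The filter on all 24 samples gave 0, since it drops miR-122 and miR-192. With settings added after seeing the data, square roots gave 0, untransformed values 0, and background subtraction with a replicate block 4, of which miR-669a and miR-669f were positive. The cause of these shifts was not tested otherwise.

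Same-numbered residuals correlated above 0.1 in 6 of 6 pairs for WD+CCl4 with ND+CCl4 and for WD+oil with ND+oil, and in 3 to 5 of 6 for the other 4 pairs of groups, so the numbers do not pair all groups. The replicate block gave miR-122 an adjusted p of 0.00179 over 24 libraries and 3 calls over 22, the third being miR-669f with a positive value.

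The miR-122 and miR-192 estimates kept their sign in every alternative run. Estimates near 0 reversed: miR-1224 (0.04) was -0.14 centred on the median, -0.026 scaled by spike-in probes, -0.028 with background subtracted, -0.20 by edgeR, -0.22 by DESeq2 and -1.59 in replicates 1 to 3 (-0.20 to 0.30 leaving out 1 library). miR-451 (-0.27) was 0.37 in replicates 1 to 3 (-0.56 to 0.18), and miR-23a (-0.04) was 0.041 in replicates 4 to 6 (-0.16 to 0.10). The median over all miRNAs, 0.18, was 0.0049 after centring. ND+oil values of miR-122, miR-192 and miR-540-3p near or under the negative control limit bound what depth can show.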
